A study of Populus tremula x Populus alba with 3 samples.

Results

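The genes described here are 40 poplar genes that the authors' deposited table of KD lines against wild type describes as members of 9 transcription factor families. They were found by searching the Arabidopsis-derived descriptions of its 2151 genes for the names of the AP2/ERF, WRKY, MYB, NAC, bHLH, bZIP, GRAS, TCP and heat shock factor (HSF) families. The families hold 13 AP2/ERF genes, 8 bHLH, 6 MYB, 5 WRKY, 3 bZIP and 2 NAC genes, and 1 gene each for GRAS, TCP and HSF. Of the AP2/ERF genes, 12 are described as Integrase-type DNA-binding, the Arabidopsis annotation's name for proteins with an AP2 domain. They were kept on that description, which holds the searched letters only inside other words. Searched as bare letters, ERF also occurs inside the word superfamily, and a search by letters took 335 genes. The 295 that name none of these families, 289 of them through the word superfamily, include histones and enzymes and are not transcription factor members here. Genes enter the authors' table by their false discovery rate (FDR) for KD lines against wild type, so the values of that comparison chose the 40 members and are given as a description.

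Buds of all groups came from the same hybrid poplar clone of INRA (Populus tremula x Populus alba). The libraries labelled KD2 and KD5 came from 2 RNA interference (RNAi) lines directed at PtaDML10, whose name refers to DEMETER-like enzymes that remove DNA methylation, and the third library came from wild type. Per the labels, plants of all 3 genotypes had 4 weeks of long days (16 h light, 21 °C), 12 weeks of short days (8 h light, 19 °C) and 4 weeks at 4 °C. They then returned to long days, and the apical buds of 15 plants per genotype were taken before visible bud break. The labels do not say whether the 15 buds were pooled. Each RNAi line has 1 library, so the spread between KD2 and KD5 holds differences between lines as well as sampling, and wild type (n = 1) carries no SD.

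Transcription factors bind short DNA motifs in regulatory regions and set how strongly nearby genes are transcribed. AP2/ERF, WRKY, NAC and heat shock factors are known in plants for responses to ethylene, wounding, cold, pathogens and heat, although some, such as AINTEGUMENTA, act in organ growth. MYB, bHLH, bZIP, GRAS and TCP factors cover cell fate, light and hormone responses, nutrient status and growth of the shoot. Roles given below are those known from Arabidopsis for the locus the authors matched, and none was examined in poplar here.

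The library labelled KD2 held 4509887 counts, KD5 4692056 and wild type 6829583. The locus taken as PtaDML10 from published naming, Potri.010G234400, stood at 13.2 CPM in the library labelled KD2, 17.0 in KD5 and 9.59 in wild type. A knockdown is thus not seen in these counts, and no test result for this locus is given here. The pairing of this locus with PtaDML10 rests on that naming alone. Every direction below is therefore that of the libraries so labelled. CPM is the usual depth-scaled count, here with library sizes corrected by the trimmed mean of M values (TMM). Of 7 listed markers of the shoot apical meristem 6 stood lower in both RNAi libraries, with sums of 192 and 241 CPM in KD2 and KD5 and 384 CPM in wild type, and none was at 0. The labelled tissue was thus detected through SHOOT MERISTEMLESS, KNAT6, CLAVATA1 and CUC3 matches. Green leaf markers summed to 9826 and 10529 CPM in KD2 and KD5 against 18767 CPM in wild type, with 41 of 42 lower and none at 0. Epidermis markers summed to 1439 and 1252 CPM in KD2 and KD5 against 2550 CPM in wild type, with 5 of 5 lower. The only xylem marker found by gene symbol, CESA7, stood at 5.25 and 6.97 CPM in KD2 and KD5 against 15.1 CPM in wild type. The few phloem symbols searched for found no gene. Genes matching organelle genomes, which also serve as a sign of RNA quality, summed to 504.5 and 329 CPM in KD2 and KD5 against 233 CPM in wild type, with 30 of 31 higher in both RNAi libraries. All these markers and organelle matches were sought only among the 2151 genes of the authors' table, so an unchanged marker could not appear. Of those 2151 genes, 1387 stood lower in the KD lines. The sums therefore cannot show the tissue composition of the buds. What these shifts contribute to the values below was not tested. In bulk buds, fewer cells of a type and less RNA per cell cannot be told apart.

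Of the 40 members, 27 stood higher and 13 lower in the KD lines in the authors' deposited table, which is 67.5% higher. For the other 2111 genes of that table the numbers were 737 higher and 1374 lower, or 34.9% higher. All 40 passed the filter on low counts. In the fit here (edgeR quasi-likelihood test over 23089 genes, called at an adjusted p under 0.05), 21 members were called higher and 11 lower, against a background over all tested genes of 5% called higher and 8.05% called lower (13.1% in either direction). Of the listed genes that were tested, 30.8% were called higher and 59.5% lower, or 90.4% in all. Both RNAi libraries stood above wild type in 26 members and below it in 13, against 40.1% and 38.4% of tested genes (78.4% on either side). Because membership rests on the same contrast, nothing is read from that count. The 8 members not called, among them 4 AP2/ERF genes, all had a mean under 5 CPM, and their adjusted p ran from 0.0588 to 0.149. Loess normalization on abundance left 5 members called higher and 4 lower, DESeq2 called 1 higher and 2 lower (33 had no adjusted p), and without the filter on low counts 0 were called, with 36 members at an unadjusted p under 0.05. Calls over all tested genes dropped too, to 245 higher and 460 lower with loess, 42 and 513 with DESeq2, and 0 and 0 of 31352 genes without the filter (5051 at an unadjusted p under 0.05), against 1155 and 1859. The median fitted log2 fold change of RNAi over wild type was 0.99 for the members, -0.76 for all listed genes and 0.02 for all tested genes. Fold changes below are on this log2 scale with the standard error (SE) of the fit. That SE uses a variance shared between genes and does not measure the spread between KD2 and KD5 for a single gene.

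**Figure D1:**
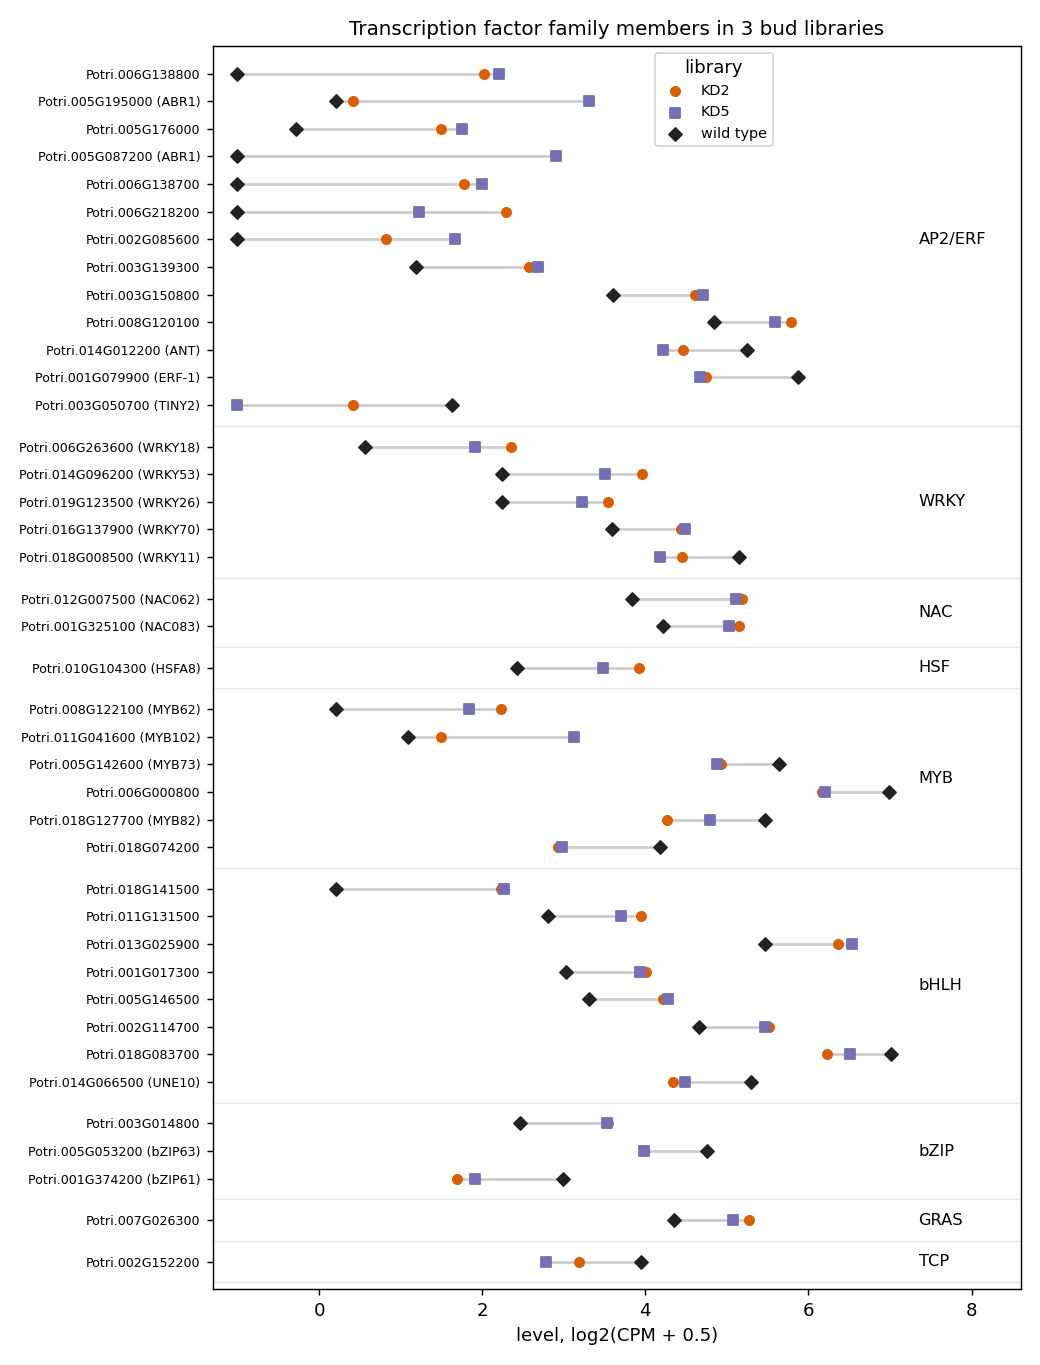
Level of each of the 40 members in KD2 (circles), KD5 (squares) and wild type (diamonds), as log2 of CPM plus 0.5, grouped by family and ordered within a family by fold change. Points at the left edge, at -1, are 0 counts (for Potri.005G087200 the KD2 circle lies under the wild type diamond), and in 39 members both RNAi libraries lie to the same side of the wild type diamond.

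Wild type counts of AP2/ERF genes ran from 0 to 358, the value of ERF-1. Of its 13 members, 10 had a fitted fold change above 0 and 3 below. It is a family of mostly low counts here, with 9 members at a mean under 5 CPM. In 5 members wild type had 0 counts, a state found in 36 of 23089 tested genes (0.156%), and 33 genes of the authors' deposited table had it. These passed the filter through the RNAi libraries alone.

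Potri.006G138800 had 17 counts in KD2, 20 in KD5 and 0 in wild type, or 3.57 CPM in KD2, 4.10 in KD5 and 0 in wild type. Potri.006G138700, whose identifier is the preceding one, had 14 counts in KD2, 17 in KD5 and 0 in wild type. Potri.006G218200 had 21 counts in KD2, 9 in KD5 and 0 in wild type. These 3 genes match the same Arabidopsis locus, AT1G19210, which carries no symbol in the table, and were detected in both RNAi libraries but not in the more deeply sequenced wild type library. Against a wild type floor of 3 counts (0.488 CPM), the RNAi mean was at least 7.86-fold higher for Potri.006G138800, 6.58-fold for Potri.006G138700 and 6.41-fold for Potri.006G218200 (for the last, 3.78-fold with KD5 alone). These bounds leave out counting error in the RNAi libraries, and exact 95% lower limits of the count ratio were 6.08, 5.05 and 4.88 for the same genes in that order. How reads that fit more than 1 of these copies were counted is not given in the sources used here, so their separate levels are uncertain.

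The locus AT1G21910, also without a symbol, has 2 members. Potri.002G085600 had 6 counts in KD2, 13 in KD5 and 0 in wild type, at least 4.02-fold above the floor. Potri.005G176000 had 11 counts in KD2, 14 in KD5 and 2 in wild type, so the scaled counts differed 7.97-fold (exact 95% interval 1.99 to 69.5, counting error only). Both copies lay higher in each RNAi library, and neither was called in the fit.

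ABR1, known as a repressor of abscisic acid responses, has 2 matches, and these split the RNAi libraries. Potri.005G087200 had 0 counts in KD2, 34 in KD5 and 0 in wild type. Potri.005G195000 had 4 counts in KD2, 46 in KD5 and 4 in wild type, or 0.840 CPM in KD2, 9.43 in KD5 and 0.650 in wild type. For both copies KD2 lay at the wild type level and the whole difference came from KD5. The edgeR fit called both higher, while limma-voom called neither (adjusted p 0.27 for each). With KD2 alone against wild type the fitted log2 fold change of Potri.005G195000 was 0.36, against 2.94 (SE 0.95) with both libraries. That of Potri.005G087200 was 0 with KD2 alone, and with KD5 alone the gene lay at least 14.3-fold above the wild type floor.

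**Figure D2:**
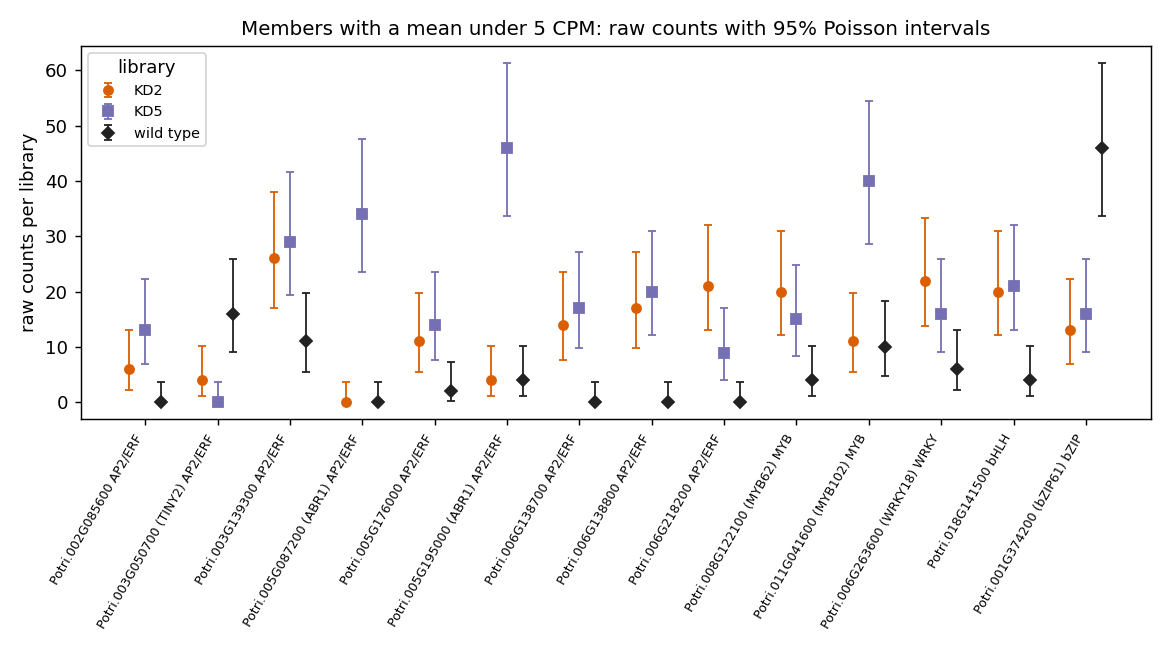
Raw counts with exact 95% Poisson intervals for the 14 members with a mean under 5 CPM, in KD2 (circles), KD5 (squares) and wild type (diamonds). The 3 genes of AT1G19210 have counts in both RNAi libraries and 0 in wild type, while both ABR1 matches and MYB102 stand out in KD5 alone.

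The better-measured AP2/ERF members had smaller differences, in both directions. Potri.008G120100 (AT3G25890) stood at 54.6 CPM in KD2, 47.5 in KD5 and 28.3 in wild type (log2 fold change 0.85, SE 0.21). Potri.003G150800 (AT5G51190) stood at 23.9 CPM in KD2, 25.6 in KD5 and 11.7 in wild type (1.08, SE 0.27). A member with fewer counts, Potri.003G139300 (AT1G64380, mean 4.40 CPM), was not called. That gene stood at 5.46 CPM in KD2, 5.94 in KD5 and 1.79 in wild type (1.66, SE 0.65). In each of these the RNAi libraries lay close together and above wild type.

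The other direction was taken by ERF-1, ANT and TINY2. ERF-1 (Potri.001G079900) is an activator that binds the GCC box of ethylene-responsive and defence genes. It stood at 26.2 CPM in KD2, 25.004 in KD5 and 58.2 in wild type (log2 fold change -1.18, SE 0.21). AINTEGUMENTA (ANT, Potri.014G012200), which promotes cell proliferation in growing organs, stood at 21.6 CPM in KD2, 18.04 in KD5 and 37.6 in wild type (-0.92, SE 0.23). ANT is itself on the list of meristem markers, of which the KNAT6 match Potri.012G087100 stood at 19.1 and 26.8 CPM in KD2 and KD5 and 39.0 CPM in wild type. TINY2 (Potri.003G050700), a factor of the DREB type, had only 4 counts in KD2, 0 in KD5 and 16 in wild type. Its log2 fold change of -2.58 has an SE of 1.34.

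The median fitted log2 fold change of the AP2/ERF family was 2.91, and 2.01 once the 5 genes undetected in wild type took their lower bound. With KD5 alone against wild type the median was 3.06, and with KD2 alone 1.03. Both ABR1 matches lay below that median with KD2 alone, at 0 and 0.36. The other AP2/ERF members with a fitted fold change above 0 also lay above 0 with KD2 alone. The summed level of the 13 genes was 148 CPM in KD2, 154 in KD5 and 141 in wild type.

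**Figure D3:**
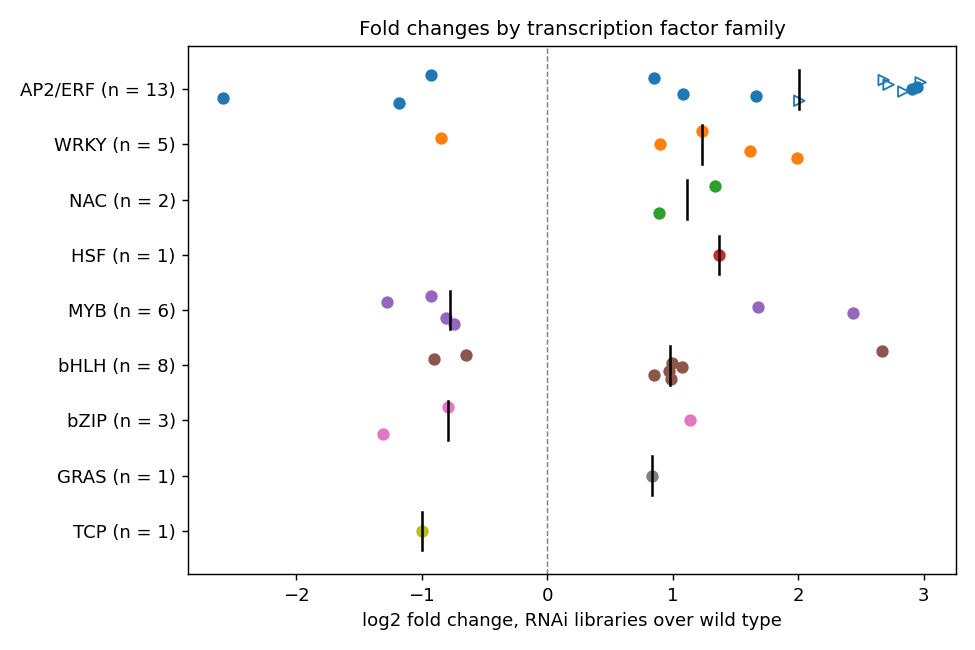
Log2 fold change of RNAi over wild type for each member by family (points), with the family median (black bar). Open triangles are the 5 AP2/ERF genes with 0 counts in wild type, drawn at their lower bound. AP2/ERF, WRKY, NAC and bHLH genes lie mostly right of 0, and 4 of the 6 MYB genes lie left of it.

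WRKY factors bind the W box and act in pathogen responses, heat tolerance and senescence. Of the 5 members, 4 stood higher in both RNAi libraries and 1 lower. WRKY53 (Potri.014G096200), a promoter of leaf senescence, stood at 15.1 CPM in KD2, 10.9 in KD5 and 4.23 in wild type (log2 fold change 1.61, SE 0.39). WRKY26 (Potri.019G123500), which acts in heat tolerance, stood at 11.1 CPM in KD2, 8.81 in KD5 and 4.23 in wild type (1.23, SE 0.43). WRKY70 (Potri.016G137900), which sits between salicylic acid and jasmonate signalling, stood at 21.2 CPM in KD2, 21.9 in KD5 and 11.5 in wild type (0.90, SE 0.28). WRKY18 (Potri.006G263600), an early pathogen-response factor, had 22 counts in KD2, 16 in KD5 and 6 in wild type (1.99, SE 0.89) and was not called. WRKY11 (Potri.018G008500), a negative regulator of basal resistance, differed in direction from the other four, at 21.4 CPM in KD2, 17.6 in KD5 and 35.1 in wild type (-0.85, SE 0.23).

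Both members named by the search as NAC domain genes stood higher. NAC062 (Potri.012G007500, also NTL6), a membrane-anchored factor released in cold and pathogen responses, stood at 35.9 CPM in KD2, 34.02 in KD5 and 13.8 in wild type (log2 fold change 1.34, SE 0.25). NAC083 (Potri.001G325100, also VNI2), a repressor of xylem vessel genes, stood at 34.9 CPM in KD2, 32.2 in KD5 and 18.05 in wild type (0.89, SE 0.24). The single heat shock factor, HSFA8 (Potri.010G104300), a class A factor, stood at 14.7 CPM in KD2, 10.7 in KD5 and 4.88 in wild type (1.37, SE 0.38). In all of these the RNAi libraries lay above wild type by more than they lay apart. A further pair of NAC genes is described by the No Apical Meristem domain and so falls outside the search by family name. CUC3 (Potri.005G255900), a boundary gene of the shoot apex, stood at 7.14, 5.94 and 2.44 CPM in KD2, KD5 and wild type, and ATAF1 (Potri.005G180200), a stress-responsive NAC gene, at 25.8 CPM in KD2, 19.5 in KD5 and 39.7 in wild type.

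Among the members found by family name, MYB was the only one of the 4 families with at least 5 members whose median lay below 0 (-0.77). Of the smaller families, bZIP (median -0.79) and the single TCP gene (-0.999) also lay below 0. Of its 6 members 4 stood lower, at levels above 5 CPM, and 2 stood higher, at means under 5 CPM. The myb-like HTH gene Potri.006G000800 stood at 71.6 CPM in KD2, 73.0 in KD5 and 126 in wild type (log2 fold change -0.81, SE 0.17). MYB73 (Potri.005G142600), a stress-responsive factor, stood at 30.0 CPM in KD2, 28.9 in KD5 and 49.3 in wild type (-0.74, SE 0.21). MYB82 (Potri.018G127700), which acts in trichome development, stood at 18.7 CPM in KD2, 27.3 in KD5 and 43.7 in wild type (-0.93, SE 0.22). The match of EARLY FLOWERING MYB PROTEIN (Potri.018G074200), a repressor of flowering, stood at 7.14 CPM in KD2, 7.38 in KD5 and 17.6 in wild type (-1.27, SE 0.32). The 4 genes each had both RNAi libraries below wild type.

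The 2 members of the MYB family above wild type both had a mean under 5 CPM. MYB62 (Potri.008G122100), known from phosphate starvation responses, had 20 counts in KD2, 15 in KD5 and 4 in wild type (log2 fold change 2.44, SE 1.06). MYB102 (Potri.011G041600), known from wounding and osmotic stress, had 11 counts in KD2, 40 in KD5 and 10 in wild type (1.68, SE 0.69). In MYB62 both RNAi libraries lay above wild type, while in MYB102 KD2 was near wild type, with a fitted log2 fold change of 0.50 for KD2 alone. CAPRICE (CPC, Potri.004G021300), a small MYB protein that represses trichome fate, is described as Homeodomain-like and so falls outside the search. It stood at 9.87 CPM in KD2, 12.9 in KD5 and 4.71 in wild type and was called higher (log2 fold change 1.27). The letter search held 4 genes with No Apical Meristem or Homeodomain-like descriptions. Of these, 2 were called higher, 1 was called lower and 1 was not called.

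bHLH proteins are dimeric factors, many of which bind the E box or G box. Of the 8 members 6 stood higher and 2 lower, and 5 of the 6 had log2 fold changes from 0.85 to 1.07. Of these, Potri.013G025900 (AT1G72210) stood at 81.5 CPM in KD2, 91.8 in KD5 and 43.6 in wild type (0.99, SE 0.19). The pair that matches AT1G10120 had similar fold changes. Potri.002G114700 stood at 45.1 CPM in KD2, 43.9 in KD5 and 24.7 in wild type (0.85, SE 0.22), and Potri.005G146500 at 18.1 CPM in KD2, 18.9 in KD5 and 9.43 in wild type (0.97, SE 0.30). Potri.011G131500 (AT4G38070) stood at 14.9 CPM in KD2, 12.5 in KD5 and 6.50 in wild type (1.07, SE 0.35), and Potri.001G017300 (AT1G51140) at 15.5 CPM in KD2, 14.8 in KD5 and 7.64 in wild type (0.98, SE 0.33). The remaining one, Potri.018G141500 (AT5G57150), had 20 counts in KD2, 21 in KD5 and 4 in wild type (2.67, SE 1.01).

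The other 2 bHLH members stood below wild type. Potri.018G083700 (AT4G29100) stood at 74.3 CPM in KD2, 90.4 in KD5 and 129 in wild type (log2 fold change -0.65, SE 0.17). UNE10 (Potri.014G066500), named for an unfertilized embryo sac mutant, stood at 19.7 CPM in KD2, 21.9 in KD5 and 38.9 in wild type (-0.90, SE 0.22). In both the RNAi libraries lay below wild type.

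The 3 bZIP members did not share a direction. Potri.003G014800 (AT1G58110) stood at 11.1 CPM in both KD2 and KD5 and 5.04 CPM in wild type (log2 fold change 1.13, SE 0.39). bZIP63 (Potri.005G053200), a factor of energy and sugar starvation responses, stood at 15.3 CPM in KD2, 15.4 in KD5 and 26.5 in wild type (-0.79, SE 0.25). bZIP61 (Potri.001G374200) had 13 counts in KD2, 16 in KD5 and 46 in wild type (-1.31, SE 0.53) and was not called. The GRAS member Potri.007G026300 (AT5G66770), of the family that includes the DELLA and SCARECROW proteins, stood at 38.2 CPM in KD2, 33.2 in KD5 and 20.0 in wild type (0.84, SE 0.23). The TCP member Potri.002G152200 (AT2G45680), of a family of shoot growth regulators, stood at 8.61 CPM in KD2, 6.35 in KD5 and 15.0 in wild type (-0.999, SE 0.33). Each of these genes had both RNAi libraries above or both below wild type, and the TCP gene had a log2 ratio of KD2 to KD5 of 0.42.

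The RNAi libraries were next compared with each other, which is not the contrast that chose the members. The spread between them can still enter the authors' test, so this comparison is not shown to be free of the selection. The median log2 ratio of KD2 to KD5 was 0.00 over the 40 members, with 20 higher in each library, and 0.00 over all tested genes. There is 1 library per line, so this comparison has no test. Exact 95% intervals of the count ratio, which cover counting error only, left out 1 for 6 members, against 20.3% of the tested genes with counts in either library. Those shares were 9.48% with KD2 above KD5 and 10.8% with KD5 above KD2. The 6 were 5 with KD5 above KD2 and 1 with KD2 above KD5. The widest gaps were those of the ABR1 matches. Potri.005G087200 was at least 11.1-fold higher in KD5 than the KD2 floor of 3 counts, and the KD2 to KD5 ratio of Potri.005G195000 was 0.0891 (interval 0.0233 to 0.244). That of MYB102 was 0.282 (0.130 to 0.559), that of MYB82 was 0.685 (0.518 to 0.903) and that of the bHLH gene Potri.018G083700 was 0.822 (0.713 to 0.948). In the other direction, Potri.006G218200 had a ratio of 2.39 (1.05 to 5.93). By family, the median log2 ratio of KD2 to KD5 was 0.32 for WRKY genes, -0.04 for MYB, -0.05 for bHLH and -0.12 for AP2/ERF.

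**Figure D4:**
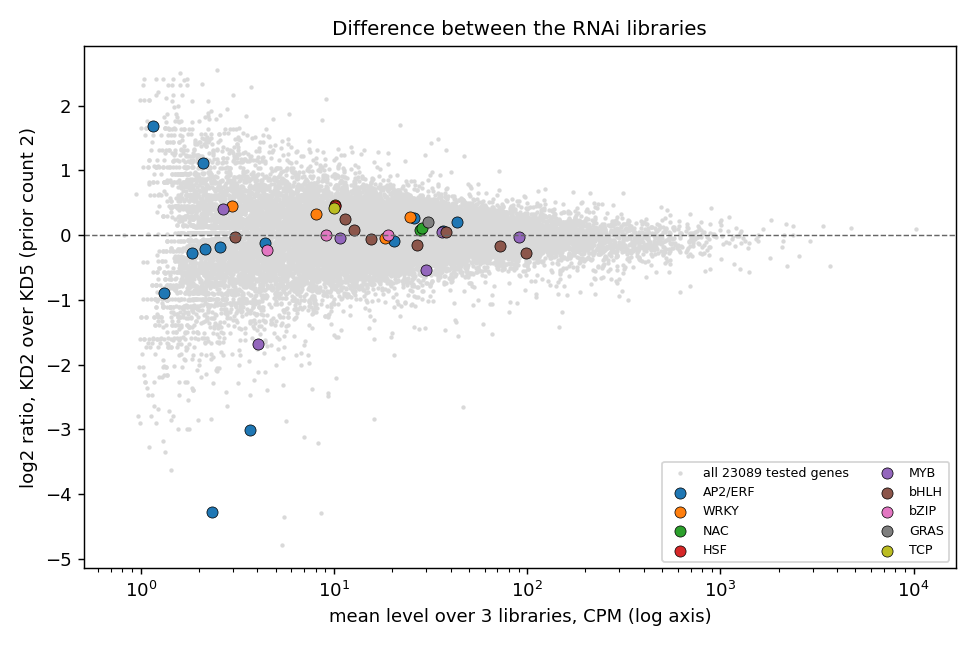
Log2 ratio of KD2 over KD5 (prior count of 2) against mean level over the 3 libraries in CPM (log axis), for the 40 members by family (coloured) and all 23089 tested genes (grey). Most members lie near 0, and the ABR1 matches and MYB102 lie far below it at means under 5 CPM.

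Members were also counted by level, with nothing read from the counts, since direction is part of the contrast that chose them. Of the 14 members with a mean under 5 CPM, 12 had a fitted fold change above 0 and 2 below. Those 12 include the 5 genes with 0 counts in wild type, which passed the filter through the RNAi libraries alone. Of the 26 members at 5 CPM or more, 15 were above and 11 below. The same split of the listed genes that were tested gave 170 above and 124 below under 5 CPM, and 594 above and 1240 below at 5 CPM or more. The median mean level was 10.998 CPM for the members, 26.6 CPM for all listed genes and 18.8 CPM for all tested genes. Per-gene levels are not corrected for transcript length, so levels are compared between libraries and not between genes. In the 26 better-measured members the SE of the log2 fold change had a median of 0.24, and in members with fewer counts it reached 1.53.

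Of the 4 Arabidopsis loci that have several members, 3 had all copies on the same side: AT1G19210 (3 genes), AT1G21910 (2) and AT1G10120 (2) had every copy above wild type in both RNAi libraries. Of the 2 copies of the fourth, ABR1, 1 had KD2 level with wild type at 0 counts. Copies from a duplication may share reads, so they are not independent observations.

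The FDR that admitted genes to the authors' deposited table reached 0.0499. The members nearest to that limit were WRKY70 at an FDR of 0.0481 in the authors' deposited table, Potri.001G017300 at 0.0470 and Potri.003G014800 at 0.0446. Genes just beyond the limit carry no family name in the files and are not analysed here.

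Other listed genes of the same pathways were counted for comparison. Transcription factors of other families, such as homeobox, GATA, C2H2 and NF-Y genes, were listed 48 times, with 11 higher and 37 lower in both RNAi libraries and a median log2 fold change of -0.79. That list was matched by name and includes 5 genes that are not such factors (S-ribonuclease binding and high mobility group proteins). The ethylene list held only 2 genes, both described as ethylene-responsive nuclear proteins and both called higher. Potri.001G464300 stood at 11.8 CPM in KD2, 13.1 in KD5 and 2.28 in wild type. The search of descriptions found no ethylene receptor or synthesis gene, but it could miss genes worded otherwise or without a description. Heat shock proteins and chaperones numbered 17, and 11 of them were called lower and 5 higher (median -0.71). All listed genes that were tested had 59.5% called lower and 30.8% higher, and their median was -0.76. Of 10 MAP kinase, calmodulin and VQ motif genes 7 were called higher and 3 lower, including CML37 (Potri.002G001400), a calmodulin-like calcium sensor, with 5.04 CPM in KD2, 4.10 in KD5 and 0 counts in wild type. MAPKKK19 (Potri.005G139300) also had 0 counts in wild type, and stood at 0.630 CPM in KD2 and 4.92 in KD5. The 3 gibberellin-regulated genes were called lower. These lists hold only genes that the authors selected on the same contrast, so their counts are not independent evidence of direction.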

How the data were processed

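RNA-seq counts were analysed for 2 RNAi libraries and 1 wild type library of poplar apical buds. The deposited counts are raw and whole, for 41335 genes. FastQC, TopHat and edgeR are named, per the submitters' processing notes. Not given in the sources used here are their versions, the genome build, the annotation, the counting program and any use of strand. The authors' deposited table gives log2 fold changes, average log2 CPM, p-values and FDR for 2151 genes, per the file headers, with an Arabidopsis locus for 2010 and a description for 1805.

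Counts were tested with edgeR 4.0.16 (R 4.3.3): filterByExpr with a minimum count of 10, TMM scaling, and the quasi-likelihood F-test, two-sided, with Benjamini-Hochberg adjustment over 23089 genes. The fit has 1 residual degree of freedom, from KD2 against KD5, and assumes that the lone wild type library varies like them. Its prior degrees of freedom were infinite, so each gene took a variance shared between genes. An SE or adjusted p of this fit therefore does not measure how far KD2 and KD5 differed for that gene. The common dispersion was 0.013. CPM was computed from these deposited counts with TMM-corrected library sizes. Library ratios used a prior count of 2 and fitted fold changes 0.125. Floors are 3 counts per library. Intervals and floors cover counting error only, and p-values reflect only how these libraries vary, which may be technical. On simulated counts for 23089 genes in this comparison, 52% of 100 genes changed 2-fold and 92% of 100 changed 4-fold were recovered, with 11 false calls. With none changed, 0 genes were called. The simulation gave every gene the common dispersion and put no difference between KD2 and KD5. It therefore cannot show how many calls in the real counts are false.

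The members and the gene lists were chosen with earlier results of these data known. Genes whose description contains the rule's letters only inside another word were left out, apart from the 12 with Integrase-type DNA-binding descriptions. Also left out were 5 identifiers that the selection excludes. The rule for named genes took families of up to 6 members whole, the largest changes and the most abundant member of larger families, genes at 0 in wild type, genes sharing a locus, extreme KD2 to KD5 ratios and those nearest the authors' limit. It took 37 members, and the other 3 (Potri.003G139300, TINY2 and Potri.018G141500) were named after their values were seen. Alternatives covered scaling, filters, DESeq2 1.42.0, limma-voom (limma 3.58.1), prior counts, a stricter threshold and leaving out each RNAi library. No sequences or promoter motifs were examined.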

Additional observations from a re-analysis of the deposited data

How the results depend on the processing

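No member changed direction under the alternatives compared, except that Potri.005G087200 had a fold change of 0 without KD5. For DESeq2 only the 7 of 40 members with an adjusted p were compared. The DESeq2 direction of the other 33 was not examined. No paired analysis was possible because the labels give no shared replicate numbers and wild type has 1 library. Of the 40 members, 21 were called higher and 11 lower. Loess normalization gave 5 and 4, DESeq2 1 and 2 (it gave 33 members no adjusted p), and omitting the filter on low counts 0 and 0, with 36 members at an unadjusted p under 0.05. Over all tested genes the calls were 1155 and 1859, with loess 245 and 460, with DESeq2 42 and 513, and without the filter 0 and 0 of 31352. Size-only scaling gave 26 and 7 and moved the median of all tested genes to 0.24. The letter search gave 114 and 176, with the median reversed to -0.72.

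By family, loess normalization called 2 AP2/ERF, 2 bHLH and 0 WRKY genes higher, and 1 bHLH, 1 MYB and 0 WRKY lower. DESeq2 called 0 AP2/ERF, 1 bHLH and 0 WRKY higher, and 1 AP2/ERF, 0 bHLH, 1 MYB and 0 WRKY lower. Without the filter all these counts were 0. Size-only scaling called 2 MYB higher and 1 bHLH lower, and a filter at 1 CPM called 1 MYB higher. The cause was not tested.

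Medians of members were 1.04 with upper quartile scaling, 1.21 with size only and 0.94 with loess, and 0.93 to 0.97 leaving out an RNAi library. The AP2/ERF median was 2.06 with limma-voom and 1.03 to 3.06 leaving out a library. The bHLH median moved by more than the small gap between its RNAi libraries, to 0.97 with DESeq2 size factors, 1.02 with upper quartile, 1.19 with size only, 0.89 with loess, 0.96 without a filter, 0.97 with DESeq2, 0.97 and 0.95 with prior counts of 0.5 and 2 (the second chosen after seeing the data), and 0.92 to 0.94 leaving out a library. The MYB median was -0.73 with upper quartile, -0.55 with size only, -0.70 with loess, and -0.77 to -0.73 leaving out a library. With 1 library against 1 no call can be tested.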
